A study of Mus musculus with 24 samples.

Results

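Hepatocyte identity is held by a small set of liver-enriched transcription factors, and 9 of them were followed here by their gene symbols: *Hnf4a*, *Foxa1*, *Foxa2*, *Foxa3*, *Cebpa*, *Prox1*, *Onecut1*, *Nr5a2* and *Gata4*. Each was found once in every deposited table, which makes 9 genes of 31053 rows in the hepatocyte table, 25876 in the cholangiocyte table and 20729 in the Smart-Seq table. The rule is a list of gene names with no threshold on a measured value, and it was set with earlier results of these data known. All 24 libraries came from adult wild-type BALB/c mouse liver cells, with no transgene or deletion in any group. The hepatocyte table holds 12 bulk poly(A) libraries, 3 each of Primary hepatocytes (Pri-Hep) and of hepatocyte organoids (Hep-Orgs) at passages P1, P5 and P10. The primary cells were enriched on Percoll and depleted of EpCAM-positive cells, and the Hep-Orgs were grown in hepatocyte medium (Hep-Med) with the Notch inhibitor DAPT and with dexamethasone. The cholangiocyte table holds 9 bulk libraries, 3 each of cholangiocyte organoids (Cho-Orgs) grown from EpCAM-positive cells at P0, P5 and P10. The Smart-Seq table holds 3 libraries without replicates, from Hep-Orgs picked at P0 for a grape-like, an intermediate or a round-like shape and amplified as full-length cDNA. The study describes these 3 shapes in the original Hep-Med, to which DAPT and dexamethasone had not yet been added, so they were not treated like the Hep-Orgs of the hepatocyte table.

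These factors act as a mutually connected network in the liver. FOXA1, FOXA2 and FOXA3 are forkhead proteins that bind closed chromatin and open it for other factors. HNF4A, a nuclear receptor, and CEBPA, a basic leucine zipper protein, bind and activate a large share of the genes that hepatocytes use for secretion and metabolism. ONECUT1 (also called HNF6) and PROX1 are homeodomain proteins of the developing liver, and ONECUT1 is also used by bile duct cells. NR5A2 is a nuclear receptor of bile acid and cholesterol genes, and GATA4 is a zinc finger protein that in adult liver is also expressed by sinusoidal endothelial and stellate cells.

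Levels are given in FPKM, which divides the fragments of a gene by its length and by a measure of library size, so genes of the same library can be set beside each other. The depth was 14068906 to 27160365 fragments per library in the hepatocyte table, and was estimated at 37620000 to 39960000 for the Cho-Orgs libraries and at 40090000 to 40360000 for Smart-Seq. A level resting on 3 fragments or fewer was treated as not distinguishable from 0. Labels were checked against 8 hepatocyte and 8 cholangiocyte marker genes. In Cho-Orgs, 8 of 8 cholangiocyte markers were at or above 1 FPKM in every library, and the hepatocyte marker albumin (*Alb*) was also present at P0, at 4994 ± 406 FPKM (SD, n = 3). The libraries labelled Primary hepatocytes went against their label, since they held *Krt19*, a bile duct keratin, at 237 ± 6.66 FPKM and *Spp1*, osteopontin of bile duct cells, at 3144 ± 56.7 FPKM. In the same libraries *Cyp2e1*, a cytochrome of mature hepatocytes, was at 0 to 0.0300 FPKM and *Asgr1*, a hepatocyte surface receptor, at 0 to 0.0350 FPKM, while *Alb* was at 112 ± 7.99 FPKM. The 8 cholangiocyte markers summed to 3903 to 3996 FPKM in these libraries and the 8 hepatocyte markers to 844 to 883 FPKM. The 9 Hep-Orgs libraries held the same markers at like levels, with cholangiocyte markers summing to 3850 to 4068 FPKM, hepatocyte markers to 862 to 911 FPKM, *Krt19* at 235 to 247 FPKM and *Cyp2e1* listed at 0. The marker check thus goes against the hepatocyte label in all 4 groups of this table, and whether samples were exchanged before deposit was not tested. Every comparison with Pri-Hep is therefore one with the libraries labelled Primary hepatocytes, and nothing about fresh hepatocytes was read from it.

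The genes lie on GRCm38 (mm10) at chr2:163506808-163572910 on the plus strand for *Hnf4a*, chr7:19013284-19023538 on the minus strand for *Foxa3*, chr7:35119293-35121928 on the plus strand for *Cebpa*, chr1:190118035-190170714 on the minus strand for *Prox1* and chr1:136842571-136960448 on the minus strand for *Nr5a2*. *Foxa1* lies at chr12:57540628-57546916 on the minus strand, *Foxa2* at chr2:148042877-148046969 on the minus strand, *Onecut1* at chr9:74861921-74891781 on the plus strand and *Gata4* at chr14:63198922-63271692 on the minus strand. RefSeq start sites (GRCm38.p6) were found for 8 of the 9 genes. The windows shown belong to the 4 genes whose level fell at every passage step or by about 1 log2 unit by P5 in Cho-Orgs, and to *Hnf4a*, whose level did not pass the test there. They hold up to 250 bases before the first listed start, written 5′ to 3′ on the strand of the gene. *Hnf4a* has 2 listed starts, 40298 bases apart, and which of them these cells used was not tested. Capitals mark matches to the letters of motifs that these same families of factors bind and to a TATA box. The windows lie at chr2:163506607-163506807 for *Hnf4a* (plus strand, ending 50 bases before the start), chr7:19023540-19023789 for *Foxa3* (minus strand), chr7:35119043-35119292 for *Cebpa* (plus strand), chr1:190170828-190171077 for *Prox1* (minus strand) and chr1:136960449-136960698 for *Nr5a2* (minus strand).
Hnf4a: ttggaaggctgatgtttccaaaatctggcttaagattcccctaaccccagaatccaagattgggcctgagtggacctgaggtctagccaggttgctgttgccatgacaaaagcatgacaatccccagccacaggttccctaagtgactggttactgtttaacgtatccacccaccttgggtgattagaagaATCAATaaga
Foxa3: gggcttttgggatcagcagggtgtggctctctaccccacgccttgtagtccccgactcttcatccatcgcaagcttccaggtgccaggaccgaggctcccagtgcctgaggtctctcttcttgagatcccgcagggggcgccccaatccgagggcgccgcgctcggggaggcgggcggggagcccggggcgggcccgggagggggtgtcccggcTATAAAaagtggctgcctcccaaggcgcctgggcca
Cebpa: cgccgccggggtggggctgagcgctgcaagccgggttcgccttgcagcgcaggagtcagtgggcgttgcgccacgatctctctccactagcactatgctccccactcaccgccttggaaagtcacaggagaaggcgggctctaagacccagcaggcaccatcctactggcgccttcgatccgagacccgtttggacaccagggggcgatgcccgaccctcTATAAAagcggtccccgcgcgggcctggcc
Prox1: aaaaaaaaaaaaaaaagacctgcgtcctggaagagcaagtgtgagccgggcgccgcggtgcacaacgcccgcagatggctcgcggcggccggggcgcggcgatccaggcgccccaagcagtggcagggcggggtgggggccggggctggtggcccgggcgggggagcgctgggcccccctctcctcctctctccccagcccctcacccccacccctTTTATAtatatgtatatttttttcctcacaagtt
Nr5a2: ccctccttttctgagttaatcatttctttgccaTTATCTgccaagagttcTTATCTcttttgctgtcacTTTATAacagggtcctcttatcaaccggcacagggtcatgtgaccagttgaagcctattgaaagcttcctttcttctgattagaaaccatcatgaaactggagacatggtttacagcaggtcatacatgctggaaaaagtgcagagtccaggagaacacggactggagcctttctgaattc

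Both strands of 13 member windows and of all 32851 windows in the table were searched with the same letters. The TATA box letters TATAAA stood 36 to 31 bases before the start of *Foxa3* and 30 to 25 bases before that of *Cebpa*, and on the opposite strand 34 to 29 bases before that of *Prox1*. They occurred in 5 member windows and in 12.4% of all windows. The Onecut letters ATCAAT stood 59 to 54 bases before the first start of *Hnf4a* and occurred in 6.72% of all windows. The GATA letters AGATAA occurred in 3 member windows, with 2 matches before the first start of *Nr5a2*, and in 9.99% of all windows. The FoxA letters TGTTTAC occurred in 3.17% of all windows and among the members before *Foxa1* alone, at 141 to 135 bases. Their variant TGTTTGC (4.30% of all windows) occurred before the second start of *Prox1*, and the C/EBP letters TTGCNNAA (9.56%) before the second start of *Nr5a2*. The HNF4 letters CAAAGTCCA (0.384%) and the NR5A2 letters CAAGGTCA (1.33%) were in none of the 13 windows. These matches describe the letters only.

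In Cho-Orgs the 9 genes went separate ways over passages. *Prox1* and *Foxa3* fell most, *Nr5a2* and *Cebpa* fell early, *Onecut1* fell and rose again, *Foxa1* rose late, and no change of *Hnf4a* passed the test. The comparison asks how far cells grown as bile duct organoids hold liver factors in long culture. Of 8 members tested by limma on log2(FPKM + 1), 6 passed an adjusted p of 0.05 from P0 to P5, 1 higher and 5 lower, where 56.6% of 11593 genes passed (34.0% higher and 22.6% lower). From P5 to P10, 6 of 8 passed, 2 higher and 4 lower, against 61.5% of all genes (31.0% higher and 30.5% lower). From P0 to P10, 6 of 8 passed, 1 higher and 5 lower, against 72.3% of all genes (41.0% higher and 31.3% lower). The libraries of both passages did not overlap for 5, 8 and 6 of the 8 members in the 3 comparisons, against 61.5%, 74.2% and 75.1% of all genes. The change of the later step differed from that of the earlier for 7 of 8 members, 5 higher and 2 lower, against 48.7% of all genes (20.9% higher and 27.8% lower). The 6 of 8 called stood near the all-gene share from P0 to P10. The median log2 fold change of the members was -0.72, -0.27 and -0.62 in the 3 comparisons, beside 0.06, 0.01 and 0.07 over all genes tested. With median-ratio size factors the share of calls that were higher from P0 to P5 was 47.1% instead of 60.0%. In these bulk samples, fewer cells of a type and less RNA per cell cannot be told apart.

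**Figure D1:**
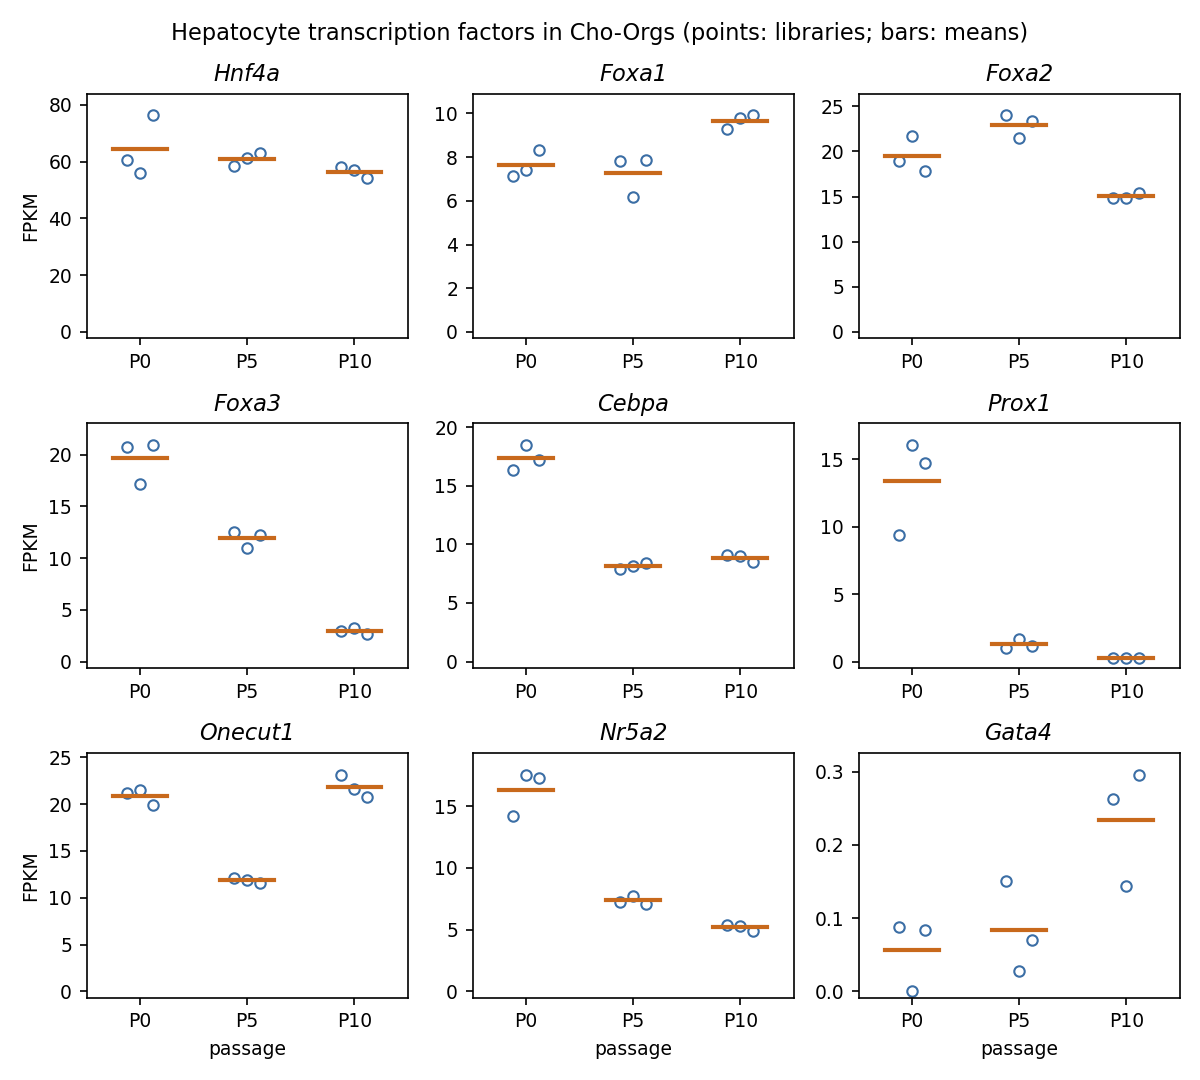
FPKM (y axis, linear, a separate scale for each gene) of the 9 transcription factor genes by passage (x axis) in Cho-Orgs. Points are libraries, 3 per passage, and bars are means; *Prox1* and *Foxa3* step down at both intervals, and *Onecut1* dips at P5.

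The nuclear receptors came apart. *Hnf4a* was at 60.7, 56.0 and 76.3 FPKM in the 3 libraries at P0, at 58.4, 61.3 and 63.0 at P5 and at 58.1, 56.9 and 54.0 at P10. The P0 libraries overlapped those of P5 and of P10, and the P0 library of replicate 3 stood highest. All P10 libraries lay under all those of P5. The log2 fold change was -0.07 (limma adjusted p = 0.585) to P5 and -0.11 (limma adjusted p = 0.350) from P5 to P10. By P10 the log2 fold change was -0.18 (95% confidence interval -0.39 to 0.04, limma adjusted p = 0.128), and it passed when the P0 library of replicate 2 was left out (-0.27, adjusted p = 0.0193) or under median-ratio size factors (-0.26, adjusted p = 0.0347). *Nr5a2* was at 14.2, 17.6 and 17.3 FPKM at P0, at 7.25, 7.75 and 7.09 at P5 and at 5.39, 5.28 and 4.89 at P10. No library of a later passage reached the lowest of an earlier one. It fell by 1.05 on the log2 scale (SE 0.0801, adjusted p = 4.52e-06) to P5 and by a further 0.43 (adjusted p = 0.00108) to P10, so that the mean was 3.15 times higher at P0 than at P10. The later step was smaller than the earlier by a tested difference of 0.61 log2 units (adjusted p = 0.00514).

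*Cebpa* fell by P5 and was still lower at P10 than at P0. It was at 16.3, 18.5 and 17.2 FPKM at P0, at 7.89, 8.13 and 8.45 at P5 and at 9.05, 8.97 and 8.54 at P10. The P0 libraries stood above all 6 later ones, and all P10 libraries lay above all those of P5. It fell by 1.00 on the log2 scale (SE 0.0572, adjusted p = 6.79e-07) to P5, while the change from P5 to P10 was 0.11 (95% confidence interval -0.02 to 0.23, adjusted p = 0.135). The 2 steps differed by 1.11 log2 units (adjusted p = 2.37e-05).

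The 3 FoxA genes changed in 3 patterns. *Foxa3*, the family member known for glucose metabolism genes of adult liver, was at 20.8, 17.2 and 20.9 FPKM at P0, at 12.6, 10.999 and 12.3 at P5 and at 2.92, 3.26 and 2.63 at P10. All libraries of a passage lay under all those of the passage before. It fell by 0.67 on the log2 scale (SE 0.0903, adjusted p = 0.000185) to P5 and by 1.72 (adjusted p = 4.09e-07) to P10, the later step being larger by 1.05 log2 units (adjusted p = 0.000484). *Foxa2* was at 18.9, 21.7 and 17.8 FPKM at P0, at 24.02, 21.5 and 23.3 at P5 and at 14.9, 14.8 and 15.4 at P10. The libraries of P0 and P5 overlapped and those of P10 were the lowest. It rose by 0.23 log2 units (SE 0.0725, adjusted p = 0.0220) to P5, a call that was lost without replicate 3 of P0 (0.17, adjusted p = 0.0774), without replicate 1 of P5 (0.20, adjusted p = 0.0806), without replicate 3 of P5 (0.22, adjusted p = 0.0673), under median-ratio size factors (0.14, adjusted p = 0.129) and in a fit of the 2 passages alone (0.23, adjusted p = 0.0567). It then fell by 0.58 on the log2 scale (adjusted p = 9.69e-05) to P10. *Foxa1* was at 7.15, 7.41 and 8.31 FPKM at P0, at 7.81, 6.17 and 7.86 at P5 and at 9.29, 9.81 and 9.92 at P10. The P10 libraries were above all 6 earlier ones. It rose by 0.37 log2 units from P5 to P10 (SE 0.0881, adjusted p = 0.00458), with a change of -0.06 (adjusted p = 0.566) before.

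The makeup of the FoxA pool followed from these levels. *Foxa3* was 44.3%, 37.2% and 44.5% of the summed FoxA FPKM in the P0 libraries, 28.3%, 28.5% and 28.2% at P5 and 10.8%, 11.7% and 9.41% at P10. The share of *Foxa1* went from 16.3% ± 1.23 (SD, n = 3) over 17.2% ± 1.09 to 35.0% ± 0.631 with passage. The summed FoxA level was 46.7 ± 0.414 FPKM at P0, 42.2 ± 3.10 at P5 and 27.6 ± 0.482 at P10. At P10 *Foxa2* made up 53.1% to 55.1% of the pool, beside 53.7% to 55.5% at P5. These shares are sums of the same values and were not tested again.

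**Figure D2:**
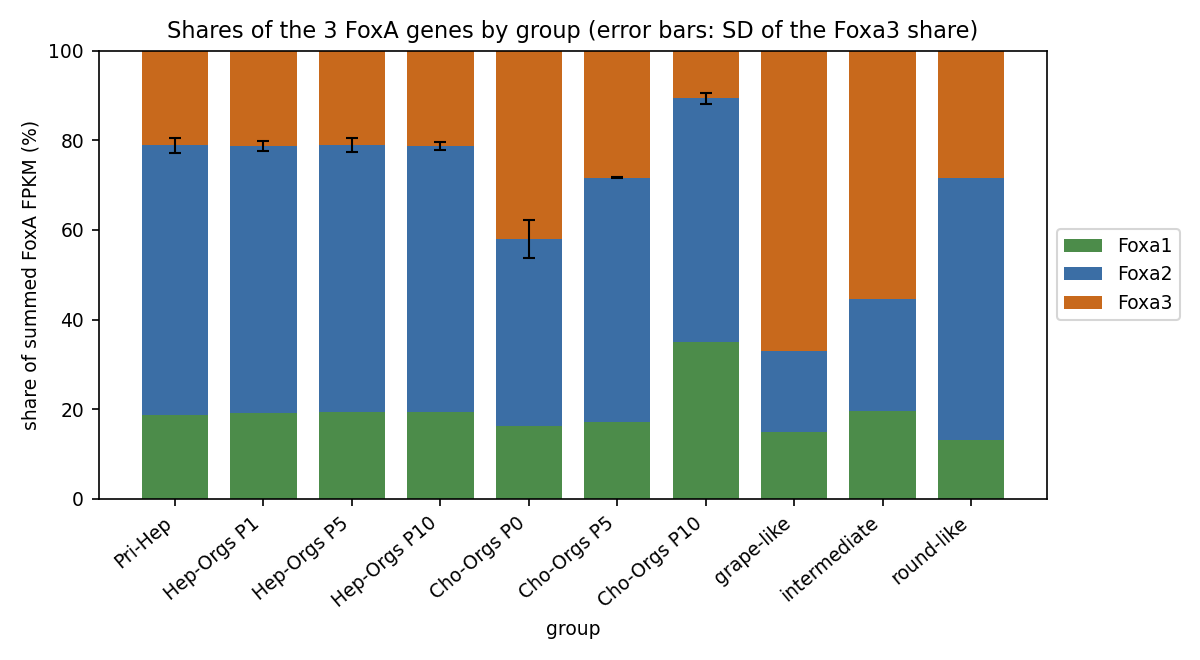
Mean share (y axis, percent) of *Foxa1*, *Foxa2* and *Foxa3* in their summed FPKM for each group (x axis). Error bars are the SD of the *Foxa3* share over 3 libraries and are missing for the Smart-Seq groups with 1 library; the *Foxa3* part shrinks from 42.0% at Cho-Orgs P0 to 10.6% at P10 and is about 21% in the 4 groups of the hepatocyte table.

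Of the homeodomain genes, *Prox1* had the largest fall of the 8 tested members and *Onecut1* overlapped its P0 libraries again at P10. *Prox1* was at 9.37, 16.1 and 14.7 FPKM at P0, at 1.00, 1.71 and 1.18 at P5 and at 0.287, 0.248 and 0.242 at P10. No libraries of different passages overlapped, and the P10 values rest on an estimated 76 to 92 fragments per library. The mean was 10.3 times higher at P0 than at P5 and 51.6 times higher at P0 than at P10. On log2(FPKM + 1), which understates changes of low genes, it fell by 2.63 (SE 0.175, adjusted p = 1.84e-06) to P5 and by 3.48 (adjusted p = 9.33e-08) to P10. With a pseudocount of 0.1 the latter was -5.20. *Onecut1* was at 21.2, 21.5 and 19.95 FPKM at P0, at 12.1, 11.95 and 11.5 at P5 and at 23.2, 21.7 and 20.7 at P10. Only the P5 libraries stood apart, and those of P0 and P10 overlapped. It fell by 0.77 on the log2 scale (SE 0.0550, adjusted p = 3.00e-06) and rose again by 0.83 (adjusted p = 1.74e-06). The difference of P10 from P0 was 0.06 (95% confidence interval -0.06 to 0.18, adjusted p = 0.337), and the 2 steps differed by 1.59 log2 units (adjusted p = 1.96e-06).

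*Gata4* was near the floor in Cho-Orgs. It was at 0.0882, 0 and 0.0831 FPKM at P0, at 0.150, 0.0284 and 0.0706 at P5 and at 0.262, 0.144 and 0.296 at P10. These values rest on an estimated 0 to 43 fragments, and the P0 library listed at 0 allows up to 0.0192 FPKM (3 fragments, counting error only). *Gata4* did not pass the filter on low values. In a fit of all 22670 genes above 0 the log2 difference of P10 from P0 was 0.22 (SE 0.0605, adjusted p = 0.0181). Its paralog *Gata6*, named here after its values were seen, was at 26.1 ± 1.53 FPKM at P0, 20.3 ± 0.944 at P5 and 15.0 ± 0.664 at P10, and fell by 0.76 on the log2 scale (adjusted p = 1.96e-06).

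**Figure D3:**
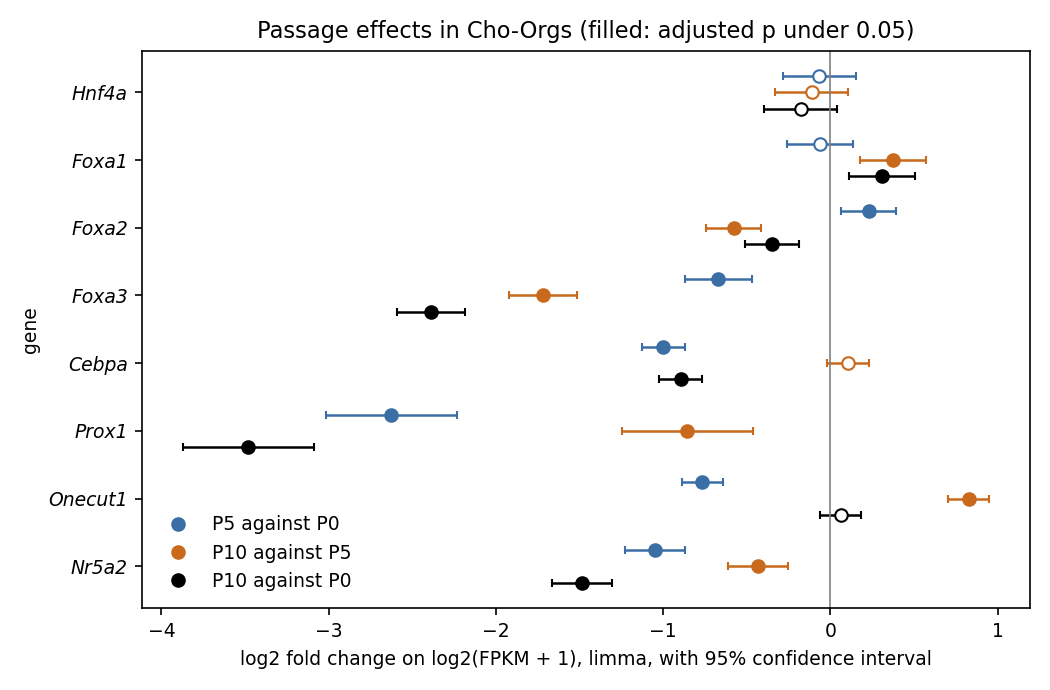
Log2 fold change on log2(FPKM + 1) from limma (x axis) for the 8 tested genes (y axis) in Cho-Orgs, for P5 against P0, P10 against P5 and P10 against P0. Bars are 95% confidence intervals and filled points passed an adjusted p of 0.05; the 3 *Hnf4a* points are open, and the points of *Onecut1* for the 2 steps lie at -0.77 and 0.83.

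The order of levels was reshaped by these changes. *Hnf4a* was the highest of the 9 genes at each passage, apart from the next gene in every library. At P0 the libraries of *Onecut1*, *Foxa3*, *Foxa2*, *Cebpa*, *Nr5a2* and *Prox1* overlapped between neighbours, followed by *Foxa1* and *Gata4*. At P10 *Onecut1* was second, and *Foxa2*, *Foxa1*, *Cebpa*, *Nr5a2* and *Foxa3* followed in that order with no overlap between neighbours except that of the last places, where *Prox1* and *Gata4* overlapped. *Foxa1* thus moved from the eighth place at P0 to the fourth at P10, while *Foxa3* moved from the third to the seventh.

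Genes with the nearest profile were sought over the 9 Cho-Orgs libraries by the root mean square difference of log2(FPKM + 1) after each gene was centred on its own mean. The nearest gene to *Hnf4a* was *Trim56* (0.0426 log2 units), to *Foxa1* it was *Zc3h12a* (0.0502), to *Foxa2* it was *Dusp1* (0.0477) and to *Cebpa* it was *Gprc5c* (0.0673). The profile of *Onecut1* was nearest to that of *Hhex* (0.0795), another liver homeobox gene, which was at 53.6 FPKM at P0, 34.1 at P5 and 57.6 at P10. *Foxa3* was nearest to *Kif18b* (0.112), *Cip2a* (0.113) and *Tacc3* (0.123), and *Nr5a2* to *Cand2* (0.0953). *Prox1* had the widest gap to its nearest gene, *Smoc1* (0.213), which was at 12.8 FPKM at P0 and 0.210 at P10. These are descriptions over libraries that share the same passages.

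Other liver-enriched factors moved in both directions. Of 24 in the list 20 were tested, and 18 passed from P0 to P10, 6 higher and 12 lower, beside 72.3% of all genes (41.0% higher and 31.3% lower), with a median log2 fold change of -0.44 beside 0.07 over all genes. *Nr0b2*, a nuclear receptor that represses NR5A2 and HNF4A, was at 9.82 ± 0.911 FPKM at P0, 1.47 ± 0.514 at P5 and 0.592 ± 0.160 at P10, and fell by 2.77 on the log2 scale (adjusted p = 1.26e-07). *Creb3l3*, *Nr1i2*, a receptor of foreign compounds, and *Rxra*, the partner of many nuclear receptors, fell by 2.30, 1.82 and 1.06. *Tbx3*, a liver T-box factor, rose by 1.32 from 1.15 ± 0.264 to 4.34 ± 0.0443 FPKM (adjusted p = 1.41e-06). *Onecut2*, the paralog of *Onecut1*, rose by 1.03 from 9.67 ± 1.25 to 20.8 ± 0.447 FPKM (adjusted p = 1.45e-06), and it rose already to P5, by 0.31 (adjusted p = 0.00718), where *Onecut1* fell. *Cebpg* and *Xbp1* rose by 0.91 and 0.63.

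Of 12 coregulators of these factors 9 were tested and 6 passed from P0 to P10, 4 higher and 2 lower, which is not above the 72.3% of all genes. *Ncoa3*, a nuclear receptor coactivator, rose by 0.69 log2 units (adjusted p = 3.64e-06), and the acetyltransferase genes *Crebbp* and *Ep300* rose by 0.41 each. *Zfpm1*, a partner of GATA factors, fell by 0.92 on the log2 scale (adjusted p = 0.000870) with a P0 spread of 36.6 ± 11.8 FPKM. *Ncoa1*, another nuclear receptor coactivator, fell by 0.26 on the log2 scale (adjusted p = 0.0359), with libraries that overlapped.

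Most of the hepatocyte genes known as targets of the 9 factors fell. Of 20 in the list 17 were tested and all 17 passed from P0 to P10, 1 higher and 16 lower, beside 72.3% of all genes (31.3% lower), with a median log2 fold change of -2.77. At P5, 9 to 10 of the 20 were at or above 1 FPKM. A gene can meet the filter of 1 FPKM through the 3 P0 libraries alone, and can then only come out lower. The count of lower genes was thus partly fixed by the filter. *Alb* went from 4994 ± 406 FPKM at P0 over 79.5 ± 12.4 at P5 to 0.584 ± 0.0579 at P10 (log2 fold change -11.62, SE 0.105, adjusted p = 3.86e-12). *Fgb*, fibrinogen beta, fell by 8.30 on the log2 scale (adjusted p = 5.39e-10), and *Apoa1*, the apolipoprotein of high-density lipoprotein, fell by 6.46 (adjusted p = 2.64e-07) with a P0 range of 51.7 to 197 FPKM. *Igfbp1* was at 181 ± 14.3 FPKM at P0, 1.74 ± 0.273 at P5 and listed at 0 in all 3 libraries at P10. While *Hnf4a* was at 56.4 ± 2.10 FPKM at P10, 5 of the 20 target genes were at or above 1 FPKM there, beside 17 to 18 at P0. The list overlaps the other liver factors, with *Nr0b2* in both, and shares *Alb*, *Ttr*, *Apoa1* and *Cps1* with the hepatocyte markers.

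Of 16 biliary and epithelial factors 15 were tested and 10 passed from P0 to P10, 6 higher and 4 lower, which is not above the 72.3% of all genes. *Hey1*, a Notch target, fell by 2.29 on the log2 scale (adjusted p = 1.36e-06), *Elf3* by 1.25, *Sox9*, a bile duct factor, by 0.60 (adjusted p = 0.000208) and *Ehf* by 0.31. *Foxj1*, the factor of motile cilia, rose by 1.83 from 15.1 ± 4.56 to 54.3 ± 1.07 FPKM (adjusted p = 7.02e-06), and *Klf6*, *Tead4* and *Tead1* rose by 1.17, 0.90 and 0.71.

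Several marker sums moved with passage beside the members. The 8 hepatocyte markers summed to 5567 to 6338.5 FPKM at P0, 150 to 192 at P5 and 34.9 to 37.7 at P10, and 6 of 6 tested fell from P0 to P10, where 31.3% of all genes fell. Of the 8, 6 were at or above 1 FPKM at P0, 5 at P5 and 3 at P10. The filter thus fixed part of this count too. All 6 proliferation markers fell too, *Mki67* from 37.3 ± 7.47 over 15.8 ± 0.582 to 1.27 ± 0.0318 FPKM. The 8 stellate cell markers summed to 60.8 to 75.6, 7.54 to 8.37 and 0.174 to 0.239 FPKM, nearly all from *Reln*, with *Dcn*, *Col1a1* and *Lrat* under 0.21 FPKM in every library. The 8 macrophage markers summed to 27.2 to 34.2, 72.1 to 77.3 and 10.1 to 10.5 FPKM, nearly all from *Cd68*, with the Kupffer cell genes *Clec4f* and *Vsig4* listed at 0 in every library. The 8 sinusoidal endothelial markers summed to under 0.79 FPKM in every library. Of 4 lymphocyte markers *Cd3e* alone was tested (log2 fold change -0.15 from P0 to P10). Of 6 markers of other endoderm 4 were tested and 3 passed from P0 to P10, 1 higher and 2 lower. This is near the 72.3% of all genes (41.0% higher and 31.3% lower). The part of hepatocyte marker and proliferation changes in the members' values was not tested.

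In the hepatocyte table no difference of the 8 tested genes between the 4 groups passed the test, and *Gata4* was too low to be tested. This comparison asks whether Hep-Orgs keep the level of their cells of origin over 10 passages, and it was limited by the label check above. *Hnf4a* was at 23.9, 24.3 and 24.4 FPKM in the libraries labelled Primary hepatocytes, at 23.9, 24.6 and 24.7 in Hep-Orgs P1, at 23.8, 23.5 and 25.7 at P5 and at 24.04, 24.6 and 23.3 at P10. *Foxa2* was at 17.8, 17.3 and 15.9 FPKM, then at 16.4, 17.5 and 16.4, at 17.2, 17.3 and 15.7 and at 17.3, 16.1 and 16.1 in the same order of groups. *Cebpa* was at 14.8, 12.3 and 12.9 FPKM, then at 14.2, 15.7 and 14.1, at 14.2, 13.1 and 13.6 and at 14.1, 15.1 and 14.2. For each of these 3 genes the libraries of every passage overlapped those labelled Primary hepatocytes, where 13.5% of all genes did not overlap for P1, 15.1% for P5 and 10.9% for P10.

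Over all 12 libraries *Onecut1* ranged from 12.8 to 15.2 FPKM with a median of 14.1, *Prox1* from 11.9 to 13.2 with a median of 12.8 and *Nr5a2* from 8.98 to 10.5 with a median of 9.94. *Foxa3* ranged from 5.48 to 6.36 FPKM with a median of 5.97, and *Foxa1* from 4.75 to 5.94 with a median of 5.50. *Gata4* was at 0 to 0.0536 FPKM, from 0 to 4 fragments per library, and in the libraries at 0 the limit of 3 fragments allows up to 0.0282 to 0.0547 FPKM. Reads of *Gata4* were thus present above that limit in 1 library of Hep-Orgs P5 alone, at 4 fragments. The fragments of *Gata4* were 3, 0 and 3 in the libraries labelled Primary hepatocytes and 4, 1 and 2 at P5, and 0 in every library of P1 and P10.

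Of 56 limma tests of 8 members in 7 comparisons (each Hep-Orgs passage and their mean against Pri-Hep, and the 3 pairs of passages), 0 passed an adjusted p of 0.05, and 1 had an unadjusted p under 0.05. By voom on recovered fragments 0 member tests passed either. In a single comparison, 436 to 1266 of all 10986 genes had an unadjusted limma p under 0.05. Of all 10986 genes, 1 (0.00910%) passed for P1 against Pri-Hep, 1 (0.00910%) for P5 against Pri-Hep, 3 (0.0273%, with 0.0182% higher and 0.00910% lower) for P10 against P5 and 0 in the other 4 comparisons. The 1 nominal case was *Cebpa* in Hep-Orgs P1 against Pri-Hep, with a log2 difference of 0.13 (95% confidence interval 0.0035 to 0.26, limma adjusted p = 0.588). All 56 intervals lay between -0.23 and 0.26 log2 units, which is within 1.197-fold of FPKM + 1, and somewhat wider in FPKM itself. The 0 calls do not show that levels were equal. Of 71 other list genes tested in the same comparisons 0 passed by limma, with 27 of 497 tests at an unadjusted p under 0.05, and voom gave 2 calls, both of *Spp1*, which was 0.06 log2 units higher at P10 than at P5 and at P1 and is named here after its values were seen.

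**Figure D4:**
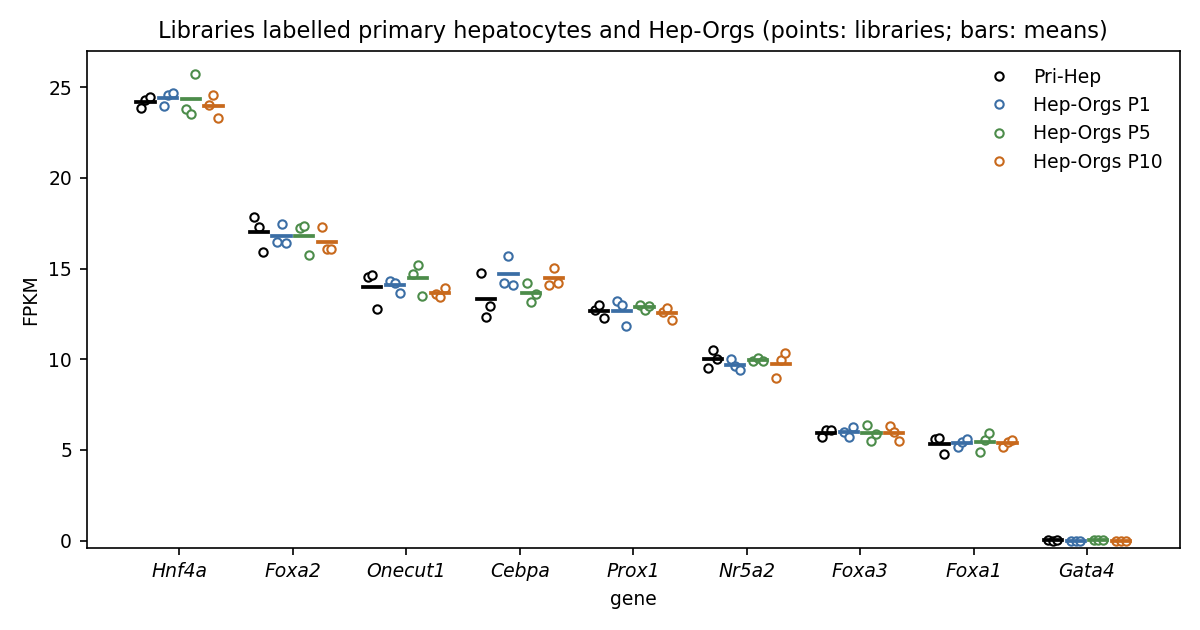
FPKM (y axis) of the 9 genes (x axis) in the 3 libraries labelled Primary hepatocytes and in 3 libraries each of Hep-Orgs P1, P5 and P10. Points are libraries and bars are means; the 4 groups of a gene lie together, and *Gata4* lies at or near 0.

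The coefficient of variation over the 12 libraries was under that of counting alone for *Foxa3* and above it for the other 8 genes. The gap was not tested for any gene, so it does not show that all 8 varied beyond counting noise. The coefficient of variation of *Hnf4a* was 2.68%, beside 2.17% from its fragment counts, and that of *Foxa3* was 4.98% beside 6.74%. *Cebpa* was at 6.70% beside 3.86%, *Onecut1* at 4.90% beside 3.08% and *Prox1* at 3.16% beside 2.27%. The chi-square statistic over libraries (11 degrees of freedom) was 32.6 for *Cebpa*, 27.9 for *Onecut1*, 24.7 for *Gata4* and 24.3 for *Prox1*, and 6.01 to 19.3 for the other 5 genes. The *Gata4* value rests on 0 to 4 fragments per library, too few for this statistic. For whole libraries, the chi-square statistic per gene was 1.90 to 3.06 for the 12 pairs within a group. It was 1.81 to 4.36 for the 54 pairs between groups, so the lowest value was that of a pair between groups. Averaged over genes, no pair agreed within sampling noise, and each library was kept as a replicate. That excess does not show that the libraries came from separate cultures or mice. Within the groups the order was alike: *Hnf4a* over *Foxa2*, then *Onecut1* and *Cebpa*, *Prox1*, *Nr5a2*, *Foxa3*, *Foxa1* and *Gata4*. The libraries of *Onecut1* and *Cebpa* overlapped in 3 of the 4 groups, those of *Cebpa* and *Prox1* in Pri-Hep, and those of *Foxa3* and *Foxa1* at P5 and P10. The FoxA pool held 59.3% to 60.1% *Foxa2* in the group means, with *Foxa3* at 21.0% to 21.3%.

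In the Smart-Seq libraries the intermediate organoids held the highest level of 6 of the 9 genes, the round-like organoids of *Foxa2* and *Onecut1*, and the grape-like organoids of *Gata4*. With 1 library per shape there was no test, and intervals cover counting error only, since amplified fragments are not independent molecules. *Hnf4a* was at 22.9 FPKM in grape-like, 79.1 in intermediate and 36.5 in round-like organoids. *Foxa3* was at 9.24, 26.1 and 9.73 FPKM in the same order, *Prox1* at 6.58, 19.3 and 11.5, *Nr5a2* at 7.87, 21.8 and 19.0 and *Foxa1* at 2.05, 9.21 and 4.49. *Cebpa* varied least of these, at 29.8, 38.0 and 28.9 FPKM. *Foxa2* was at 2.52, 11.8 and 20.1 FPKM and *Onecut1* at 1.30, 6.22 and 11.4, both highest in round-like organoids. *Gata4* was at 18.3, 4.73 and 4.83 FPKM, from an estimated 2863, 745 and 760 fragments.

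Between intermediate and grape-like organoids, 7 of the 9 genes were at least 2-fold higher and 1 (*Gata4*) at least 2-fold lower on log2(FPKM + 1), where 7.15% of 12595 genes were as much higher and 9.71% as much lower (16.9% in either direction). On this scale the log2 ratio of *Foxa2* was 1.86 (95% counting interval 1.71 to 2.01), which overlapped the intervals of *Hnf4a*, *Foxa1* and *Onecut1*, and the plain FPKM ratio was 4.68 for *Foxa2* and 4.78 for *Onecut1*. The log2 ratio was 1.74 (1.70 to 1.79) for *Hnf4a*, 0.34 (0.28 to 0.41) for *Cebpa* and -1.75 (-1.85 to -1.65) for *Gata4*. Between round-like and grape-like organoids 3 were higher and 1 lower, against 8.82% and 12.9% of all genes (21.8% in either direction). *Foxa2* was at 2.58 (2.44 to 2.73), *Onecut1* at 2.43 (2.31 to 2.56), *Nr5a2* at 1.17 (1.099 to 1.24) and *Gata4* at -1.73 (-1.82 to -1.63). Between round-like and intermediate organoids 0 were higher and 2 lower, against 2.54% and 3.85% of all genes (6.39% in either direction). These were *Foxa3* at -1.34 (-1.45 to -1.23) and *Hnf4a* at -1.09 (-1.13 to -1.05).

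**Figure D5:**
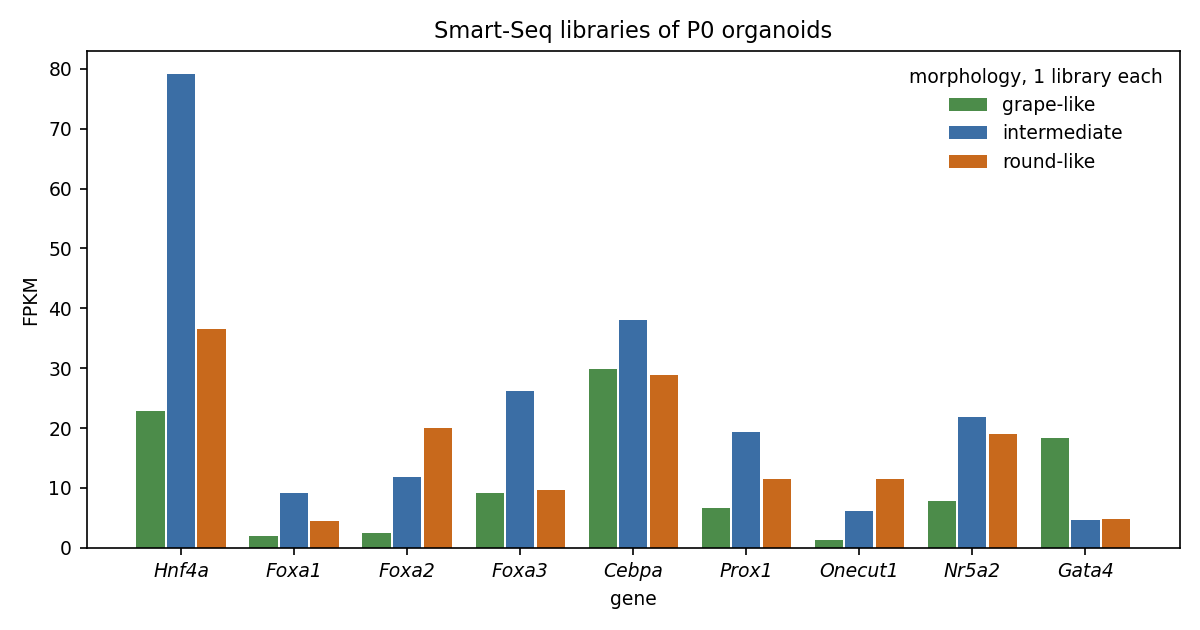
FPKM (y axis, from 0) of the 9 genes (x axis) in the Smart-Seq libraries of P0 organoids, coloured by shape. Bars are single libraries without error; *Hnf4a* reaches 79.1 FPKM in the intermediate library, and *Gata4* alone is highest in the grape-like library.

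The FoxA pool differed between shapes, with *Foxa3* at 66.9% of the summed FoxA FPKM in grape-like, 55.4% in intermediate and 28.4% in round-like organoids and *Foxa2* at 18.2%, 25.04% and 58.5%. The summed level was 13.8, 47.1 and 34.3 FPKM. Of 17 hepatocyte target genes measured, 7 were at least 2-fold higher and 1 lower in intermediate than in grape-like organoids. The shares of all genes were 7.15% and 9.71%. In round-like organoids 0 were higher and 12 lower than in intermediate ones, against 2.54% and 3.85% of all genes. Compared with grape-like organoids, 0 were higher and 11 lower in round-like ones, against 8.82% and 12.9% of all genes. Of 15 biliary and epithelial factors measured, 9 were higher and 1 lower in round-like than in grape-like organoids, against the same 8.82% and 12.9%.

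Markers of other cells moved with shape. The 8 macrophage markers summed to 2776, 784 and 507 FPKM in grape-like, intermediate and round-like libraries, with 8, 7 and 7 at or above 1 FPKM, and *Clec4f*, the defining Kupffer cell lectin, was at 79.3, 13.4 and 10.3 FPKM. The 8 stellate cell markers summed to 895, 240 and 171 FPKM and the 8 sinusoidal endothelial markers to 212, 89.4 and 39.9 FPKM, with 8, 7 and 6 of each at or above 1 FPKM. *Gata4* was lower together with these 3 sums in intermediate than in grape-like organoids. From intermediate to round-like organoids the 3 sums were lower again, and *Gata4* was at 4.73 and 4.83 FPKM. Of 8 markers each, 0 of macrophages, 0 of stellate cells and 6 of sinusoidal endothelium were at least 2-fold lower there. Of all genes, 3.85% were as much lower. The 8 cholangiocyte markers summed to 877, 3457 and 2856 FPKM and were at least 2-fold higher than in the grape-like library in 8 of 8 cases for both other shapes. Of all genes, 7.15% were as much higher in the intermediate library and 8.82% in the round-like library. The 8 hepatocyte markers summed to 4697, 7677 and 1167 FPKM. The part of these cells in the members' values was not tested.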

How the data were processed

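Bulk poly(A) RNA-seq was made from 21 libraries and Smart-Seq from 3. The authors deposited FPKM per gene in 3 tables, each normalized on its own, so the tables were never fitted together. The submitters' processing notes name featureCounts 2.0.3, edgeR 3.40.2 and mm10. The aligner and the annotation release are not given in the sources used here. For their own tests the authors used edgeR on counts. As the files hold FPKM, limma 3.58.1 (R 4.3.3) was used on log2(FPKM + 1), two-sided, with eBayes trend, all groups of a table in 1 fit, and Benjamini-Hochberg adjustment within each comparison at 0.05. A gene was tested where 3 or more libraries of its table reached 1 FPKM, which left 10986 in the hepatocyte and 11593 in the cholangiocyte table. Smart-Seq ratios used 12595 genes that reached 1 FPKM in any library, with intervals from estimated fragment counts.

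Fragments were recovered from FPKM and the listed gene lengths in the hepatocyte table, where 100% of values were whole within 0.05. Depth in the other tables was estimated from the steps between low values and is approximate. Fragments there are estimates from that depth, the FPKM and the gene lengths listed in the hepatocyte table. Gene positions are those of GENCODE M21 and promoters those of RefSeq GRCm38.p6.

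The figure legends tie replicate numbers to mice, while the methods call replicates independent cultures, so p-values may measure the spread between cultures only. Libraries with the same number did not deviate together: their deviations from the group means had a median correlation of -0.00626 over 9 pairs in the cholangiocyte table and -0.00155 over 18 pairs in the hepatocyte table. A replicate block was run as an alternative. Named genes were the 9 members, up to 4 genes in each direction of each list by the P0 to P10 change in Cho-Orgs, and the 3 genes nearest each member in profile. Some genes named by this rule are not reported here; the counts of their lists include them. The members and lists were chosen with earlier results of these data known. The main fit of each bulk table was run on simulated data for its first comparison alone. These were P5 against P0 in Cho-Orgs and Hep-Orgs P1 against Pri-Hep. The other comparisons and the alternative fits were not simulated.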

Additional observations from a re-analysis of the deposited data

How the results depend on the processing

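Alternatives were a pseudocount of 0.1, all genes above 0, a mean FPKM of at least 5, median-ratio size factors, TPM, fits of only the groups compared, eBayes without trend, a replicate block, voom in the hepatocyte table and leaving out each library. Of 532 alternative values of members in Cho-Orgs, 517 kept their side of the threshold, 12 lost it, 3 gained it and 0 reversed (a sign change where neither value passes was not counted). Losses were *Foxa2* from P0 to P5 (0.14 to 0.23) and the difference of the *Foxa1* steps, 0.44 with all genes above 0 (adjusted p = 0.0812), 0.41 with TPM (0.0683) and 0.24 to 0.46 without P0 replicate 3, P5 replicate 2 or any 1 P10 library (0.0528 to 0.174). *Hnf4a* from P5 to P10 gained it in a fit of only those groups (-0.11, adjusted p = 0.0411). *Prox1* was not tested at a mean of 5. The replicate block kept 6, 6, 6 and 7 members called in Cho-Orgs and 0 in the hepatocyte table, and changed no member's call. All 1168 values in the hepatocyte table kept their side. Median-ratio size factors were 1.00184 in every library there, so that alternative left its values nearly unchanged. Its part of the 1168 values is therefore no separate check. Of 81 Smart-Seq values 41 moved by less than the counting interval, 40 by more and 0 reversed. The all-gene median moved by -0.126 for round-like against intermediate under size factors.

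Genes called in the hepatocyte table, 0 to 3 in the fits reported, moved as follows. With all genes above 0 there were 4 for P5, 2 for P10 and 1 for all Hep-Orgs against Pri-Hep, 1 for P5 against P1 and 0 for P10 against P5. A mean of 5 gave 7 for P5 against Pri-Hep, and TPM gave 3 there and 1 for P5 against P1. Without trend, with only the groups compared, and with the replicate block, there were 0 each for P1 and P5 against Pri-Hep and for P10 against P5. With voom there were 29 for P1, 34 for P5 and 10 for all Hep-Orgs against Pri-Hep, 27 for P10 against P5 and 26 for P10 against P1. Leaving out 1 library gave 0 to 2 for P1 against Pri-Hep, 0 to 3 for P5 against Pri-Hep, 0 to 6 for P10 against P5 and 0 to 2 for P10 against P1. The cause was not tested. Depth limited *Gata4*, at 0 to 4 fragments in the hepatocyte table and an estimated 0 to 43 in Cho-Orgs.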
